A study of Homo sapiens with 6 samples.

Results

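Complement is a cascade of blood and tissue proteins that tags cells and microbes and can end in a pore in the target membrane. The genes described here are 9 of its components and regulators, C3, C5, CFB, C1R, C1S, SERPING1, CD46, CD55 and CD59, taken by symbol from the deposited tables of 19903 genes each. RNA sequencing covered 6 libraries from 3 human cell lines, all at passage 5 and all given as lung cancer in the labels. A line contributed a single empty-vector library and a single library with a vector for malin (NHLRC1), an E3 ubiquitin ligase, which made 3 libraries per vector without replication inside a line. The empty-vector group consisted of A549, H1299 and H2030 with empty vector, and the malin group of the same lines labelled as overexpressing NHLRC1. The labels give neither the promoter of the vector nor whether the cultures were clones, pools or separate cultures, so p-values measure the spread between these libraries, which may be technical. Values are FPKM, fragment numbers scaled for transcript length and for sequencing depth. Comparisons between lines also depended on further scaling between libraries, as given below.

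In the classical pathway the proteases C1R and C1S, held in one complex with C1q, are activated on a surface and cut C4 and C2. All pathways meet at C3, whose cleavage tags surfaces, and lead on to C5, whose cleavage starts the membrane attack complex. CFB supplies the protease of the alternative pathway, which amplifies C3 cleavage. SERPING1 encodes the C1 inhibitor, which inactivates C1R and C1S. CD46 is a cofactor for inactivation of C3b and C4b on the cell's own surface, CD55 speeds the decay of the convertases that cut C3 and C5, and CD59 blocks assembly of the pore. CD55 and CD59 are held in the membrane by a glycosylphosphatidylinositol (GPI) anchor, whereas CD46 spans it. The liver is the main source of circulating complement, epithelial cells also make several components, and tumour cells are known for carrying the membrane regulators.

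Both the components and the membrane regulators differed between the lines. The sequences before the starts of 5 of these genes are shown: CFB, C1R and C5 because they are the components with an entry in the promoter table and had their highest level in A549, and CD55 and CD59 because H1299 had the least of the first and the most of the second. The 250 bases upstream of the first listed transcript start, from RefSeq on GRCh38.p14, read as follows from 5′ to 3′, with capitals marking letters that matched a searched motif.
CFB: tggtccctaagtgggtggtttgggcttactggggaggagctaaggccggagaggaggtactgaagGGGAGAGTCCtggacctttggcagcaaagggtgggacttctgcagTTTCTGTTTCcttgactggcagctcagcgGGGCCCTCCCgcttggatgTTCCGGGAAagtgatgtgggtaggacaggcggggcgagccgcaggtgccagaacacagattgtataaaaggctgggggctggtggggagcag
C1R: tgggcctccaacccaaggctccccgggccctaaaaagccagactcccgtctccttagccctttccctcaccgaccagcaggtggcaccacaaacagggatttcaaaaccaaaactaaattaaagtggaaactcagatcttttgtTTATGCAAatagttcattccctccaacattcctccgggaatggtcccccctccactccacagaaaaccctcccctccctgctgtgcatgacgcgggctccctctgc
C5: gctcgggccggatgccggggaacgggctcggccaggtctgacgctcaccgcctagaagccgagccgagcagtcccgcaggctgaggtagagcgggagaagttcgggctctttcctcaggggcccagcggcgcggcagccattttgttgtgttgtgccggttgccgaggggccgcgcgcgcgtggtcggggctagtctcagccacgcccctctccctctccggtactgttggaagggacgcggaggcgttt
CD55: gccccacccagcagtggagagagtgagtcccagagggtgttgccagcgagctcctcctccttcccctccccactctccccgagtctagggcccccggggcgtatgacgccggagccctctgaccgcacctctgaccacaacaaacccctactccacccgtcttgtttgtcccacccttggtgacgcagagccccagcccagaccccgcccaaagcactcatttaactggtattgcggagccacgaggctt
CD59: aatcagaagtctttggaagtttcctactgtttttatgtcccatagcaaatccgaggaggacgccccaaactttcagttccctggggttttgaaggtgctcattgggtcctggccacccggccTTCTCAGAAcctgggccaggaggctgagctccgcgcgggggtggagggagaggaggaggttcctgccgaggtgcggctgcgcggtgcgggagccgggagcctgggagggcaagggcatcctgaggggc
The stretches lie at chr6:31945845-31946094 on the plus strand for CFB, chr12:7092446-7092695 on the minus strand for C1R, chr9:121074866-121075115 on the minus strand for C5, chr1:207321428-207321677 on the plus strand for CD55 and chr11:33736480-33736729 on the minus strand for CD59. Of the 9 genes 6 were matched in the promoter table, and C3, C1S and SERPING1 were not. Both strands were searched for the interferon-stimulated response element (GAAA, any 2 bases, GAAA), TTCNNNGAA (the gamma-interferon activation site), NF-kB-type letters (GGGA, any 4 bases, CC) and TTGCNNAA (C/EBP-type letters). Of 35116 listed human promoters, 3.02%, 6.57%, 22.6% and 9.05% held these motifs in the same window. The CFB stretch held the response element 140 to 131 bases before the start, the activation site 92 to 84 bases before it, and NF-kB-type letters at 185 to 176 and 111 to 102 bases. The C1R stretch held C/EBP-type letters at 106 to 99 bases, the CD59 stretch held the activation site at 128 to 120 bases, and the C5 and CD55 stretches held none of the 4 motifs. No 2 of these matches overlapped. Further starts, not shown, are listed for C1R, C5 and CD59. Start 2 of C1R held the activation site (86 to 78 bases), NF-kB-type letters (185 to 176) and C/EBP-type letters (167 to 160). Start 2 of CD59 held the activation site (184 to 176), and start 3 held C/EBP-type letters (191 to 184 and 53 to 46). Start 2 of C5 and start 4 of CD59 held no match. A match describes letters only, and no binding was measured.

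The identity of the libraries was checked before the members were compared. NHLRC1 stood at 1.21 FPKM with empty vector and 6.82 with malin in A549, 2.85 and 119.2 in H1299, and 0.18 and 3.69 in the pair labelled H2030. The FPKM column of the malin library labelled H2030 was headed with the short name of the embryonic kidney line HEK293T, so that pair is named by its label throughout, and where leaving out 1 of its libraries changed a member's call, both values are given. The epithelial keratin KRT7 was at 1302 and 1269 FPKM in A549 and at most 1.24 FPKM in the other 4 libraries, and KRT19 was at 42 and 48.1 FPKM in A549 and listed at 0 in both libraries labelled H2030. The epithelial marker EPCAM was instead highest in that pair, at 8.55 and 5.41 FPKM against at most 1.75 elsewhere. CDH1 was at 2.56 and 2.71 FPKM there, 3.27 and 1.67 in A549 and at most 0.02 in H1299. KRT8 and KRT18 were lowest in that pair, but at 72.9 FPKM or more. Among neuronal markers that pair had 30.5 and 52.6 FPKM of the neurofilament gene NEFM, at most 2.11 elsewhere, but 10.3 and 7.24 FPKM of the tubulin gene TUBB3, against 137.7 or more elsewhere. Of 6 kidney development factors, SALL1 (9.11 and 9.9 FPKM) and SIX2 (5.27 and 6.28 FPKM) were highest in that pair, while PAX8 was listed at 0 there and WT1 was highest in H1299, at 4.75 and 5.42 FPKM. NKX2-1, a lung lineage factor, was highest in the pair labelled H2030, at 1.85 and 3.78 FPKM. It was at 0.77 and 0.6 FPKM in H1299 and listed at 0 in A549. The other lung markers analysed were low, SFTPB and SFTPC at 0.11 FPKM or less and NAPSA at 1.36 or less. The markers covered epithelium, lung, macrophages and leukocytes, T and B cells, endothelium, fibroblasts, kidney development and neurons. Of 40 listed, 35 were analysed, since the others had no row in the deposited tables. Of the 4 T and B cell markers only 1 was analysed. Of the macrophage and leukocyte markers, PTPRC, CSF1R and CD163 reached at most 0.09 FPKM and CD14 at most 2.28, whereas LYZ was at 2.07 to 4.07 FPKM in the 6 libraries and CD68 at 45.7 and 53.2 FPKM in H1299, 11.5 and 11.8 in A549 and 2.13 and 1.72 in the pair labelled H2030. The part of other cell types in the results was not tested. The 4 endothelial markers summed to between 0.03 and 0.53 FPKM per library. Depth, estimated from the spacing of low values, was 8300000 to 10700000 fragments per library.

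The transcripts of the components were most abundant in A549. The summed FPKM of C3, C5, CFB, C1R and C1S was 61 with empty vector and 47 with malin in A549, 2.27 and 2.36 in H1299, and 8.87 and 7.36 in the pair labelled H2030. Of the 9 genes 8 and 7 reached 1 FPKM in the A549 libraries with empty vector and malin, 4 and 4 in H1299, and 7 and 6 in the pair labelled H2030. Both H1299 libraries were above the other 4 for CD59 (22.5% of fitted genes) and below them for C1R, C1S, CD55 and C3 (27.1%), and the pair labelled H2030 was above the other 4 for SERPING1 (37.5%) and below them for C5 and CD59 (16.7%). A549 was below the other 4 for SERPING1 (33.5%). In both A549 libraries 6 of 9 genes (C3, C5, CFB, C1R, C1S and CD46) were above the other 4 libraries, and 5 of these were among the 8 genes with a mean of at least 1 FPKM that entered the fits. Of the 12182 protein-coding genes fitted, 18.6% had both A549 libraries above the other 4. CFB, at a mean of 0.34 FPKM, did not enter. C3, C5, C1R, C1S and SERPING1 had a mean below 1 FPKM in 1 or more lines and entered through the lines where they were high, so the counts of fitted members describe these genes and do not support a statement about the group. These are bulk libraries, in which fewer expressing cells and less RNA per cell cannot be told apart.

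**Figure D1:**
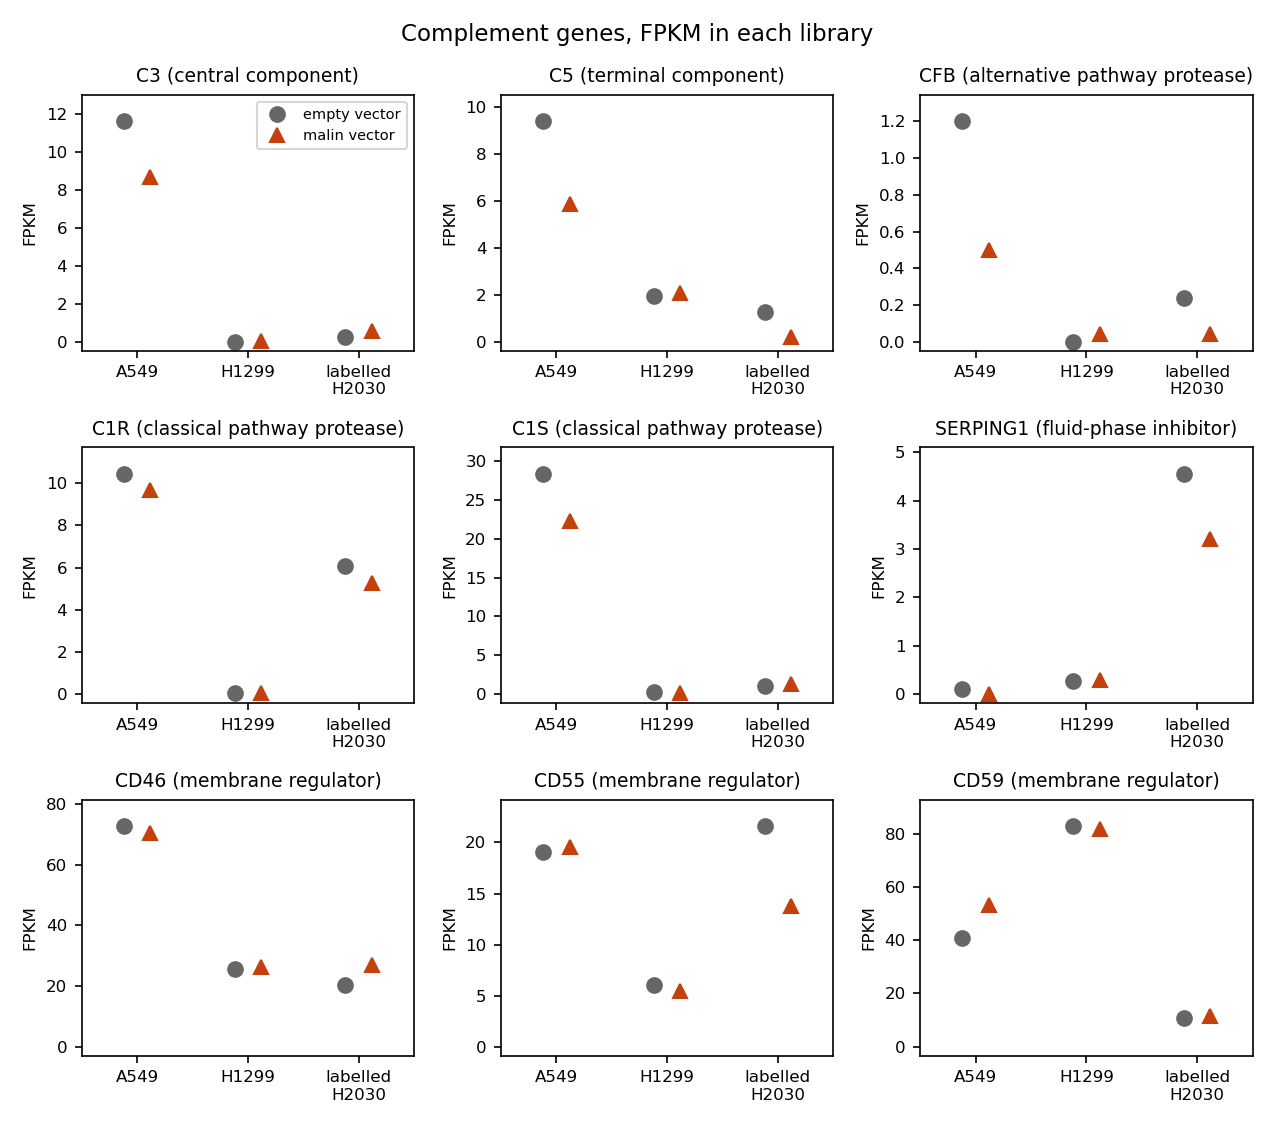
FPKM (vertical axes, linear, each panel with its own range) of the 9 complement genes in each of the 6 libraries, by line on the horizontal axes; circles are empty-vector and triangles malin libraries, 1 library each. C3 stands at 11.6 and 8.66 FPKM in A549 and at most 0.56 elsewhere, while SERPING1 is highest in the pair labelled H2030, at 4.55 and 3.2 FPKM.

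C1R and C1S encode the 2 serine proteases of the C1 complex and lie near each other on chromosome 12 of build hg38, C1R from 7080219 to 7092445 on the minus strand and C1S from 7060718 to 7071032 on the plus strand, with 9186 bases between them. C1R was at 10.4 and 9.69 FPKM in A549 with empty vector and malin, 0.04 and 0.04 in H1299, and 6.07 and 5.26 in the pair labelled H2030. Its 3 lines did not overlap, with A549 highest and H1299 near 0. C1S was at 28.3 and 22.2 FPKM in A549, 0.29 and 0.19 in H1299, and 1.05 and 1.31 in the pair labelled H2030. The order of the lines was the same for both genes, but the pair labelled H2030 stood near A549 for C1R and near H1299 for C1S. C1S exceeded C1R 2.71-fold and 2.29-fold in the A549 libraries with empty vector and malin, and in the pair labelled H2030 it was 0.173 and 0.249 times C1R. In limma's fit of log2(FPKM+1), A549 exceeded H1299 by 3.41 ± 0.14 (SE, 2 libraries per line; adjusted p = 2.02e-05) for C1R and by 4.40 ± 0.17 (adjusted p = 1.8e-05) for C1S. A549 exceeded the pair labelled H2030 by 0.73 ± 0.14 for C1R (limma, adjusted p = 0.00413) and by 3.58 ± 0.17 for C1S (limma, adjusted p = 2.83e-05). For H1299 against that pair the coefficient was -2.68 ± 0.14 for C1R (limma, adjusted p = 4.29e-05), and for C1S it was -0.81 ± 0.17 (limma, adjusted p = 0.00669). The last call was lost without the empty-vector or the malin library of H1299 (limma, adjusted p = 0.0556 and 0.0605), with a pseudocount of 5 (0.0988) and with quantile normalization (0.126).

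C3, the component on which all pathways meet, lies on chromosome 19 from 6677704 to 6720650 on the minus strand. It was at 11.6 and 8.66 FPKM in A549 with empty vector and malin, listed at 0 and at 0.02 in H1299, and at 0.24 and 0.56 in the pair labelled H2030. An estimated 617 and 461 fragments lay behind the A549 values and 10 and 29 behind those of the pair labelled H2030, against 1 fragment in the 2 H1299 libraries together. Both A549 libraries were thus above the other 4, and the coefficients against H1299 and against the pair labelled H2030 were 3.45 ± 0.20 and 2.99 ± 0.20 on the log2 scale (SE; limma, adjusted p = 7.15e-05 and 8.6e-05). H1299 and the pair labelled H2030 did not overlap, but their difference of -0.46 ± 0.20 did not pass (limma, adjusted p = 0.0873). It passed with a pseudocount of 0.1 (limma, adjusted p = 0.00451) and without the empty-vector library labelled H2030 (adjusted p = 0.00752).

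C5, the precursor of the anaphylatoxin C5a and of the first pore subunit, spans chromosome 9 from 120952335 to 121074865 on the minus strand. Its FPKM was 9.4 with empty vector and 5.89 with malin in A549, 1.94 and 2.07 in H1299, and 1.27 and 0.19 in the pair labelled H2030. The lines did not overlap, and A549 exceeded H1299 by 1.49 ± 0.25 and the pair labelled H2030 by 2.36 ± 0.25 on the log2 scale (SE; limma, adjusted p = 0.0031 and 0.000408). H1299 exceeded that pair by 0.87 ± 0.25 (limma, adjusted p = 0.0223). This last call was lost without the malin library of H1299 (limma, adjusted p = 0.181), without the malin library labelled H2030 (0.057), with a pseudocount of 5 (0.0648), without a filter (0.0537) and without the vector term (0.056). RefSeq long noncoding genes, C5-OT1 among them, overlap C5, so reads in the shared stretches could not be assigned with certainty. No label or header mentions strand.

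CFB, the alternative pathway protease, lies on chromosome 6 from 31946095 to 31952084 on the plus strand, 422 bases from its relative C2 and 2 bases from NELFE. It was at 1.2 and 0.5 FPKM in A549 with empty vector and malin, listed at 0 and at 0.04 in H1299, and at 0.24 and 0.04 in the pair labelled H2030. The A549 values rested on an estimated 34 and 14 fragments, and the other 4 libraries on 0 to 6. When all protein-coding genes were fitted without a filter, A549 exceeded H1299 and the pair labelled H2030 (limma, adjusted p = 0.0144 and 0.0217, 2 libraries per line).

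SERPING1, which encodes the C1 inhibitor, lies on chromosome 11 from 57597685 to 57614848 on the plus strand. It was at 0.11 FPKM with empty vector and listed at 0 with malin in A549, at 0.27 and 0.3 FPKM in H1299, and reached 4.55 and 3.2 FPKM in the pair labelled H2030. Both libraries labelled H2030 were above the other 4, unlike those of its target proteases C1R and C1S, which were highest in A549. The coefficients on the log2 scale were -2.20 ± 0.16 for A549 and -1.91 ± 0.16 for H1299, each against the pair labelled H2030 (SE; limma, adjusted p = 0.000116 and 0.000209). Without the malin library of that pair, and without its empty-vector library, both calls held (limma, adjusted p of at most 0.0034 over the alternatives in which SERPING1 was fitted, which leaves out the minimum mean of 5 FPKM). A549 and H1299 differed by -0.29 ± 0.16, which did not pass (limma, adjusted p = 0.174). It did pass without the empty-vector or the malin library labelled H2030 (limma, adjusted p = 0.0358 and 0.0387) and with a pseudocount of 0.1 (0.0189).

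All 3 membrane regulators were at 5.5 FPKM or more in every library, and the most abundant of them differed between the lines. Their summed FPKM was 132.5 and 143.3 in A549 with empty vector and malin, 114.6 and 113.8 in H1299, and 52.5 and 52.2 in the pair labelled H2030. CD46 made up 54.9% and 49.1% of that sum in A549, and CD59 made up 72.3% and 71.9% of it in H1299. In the pair labelled H2030 the shares were 38.5% and 51.4% for CD46, 41.1% and 26.4% for CD55, and 20.3% and 22.2% for CD59.

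**Figure D2:**
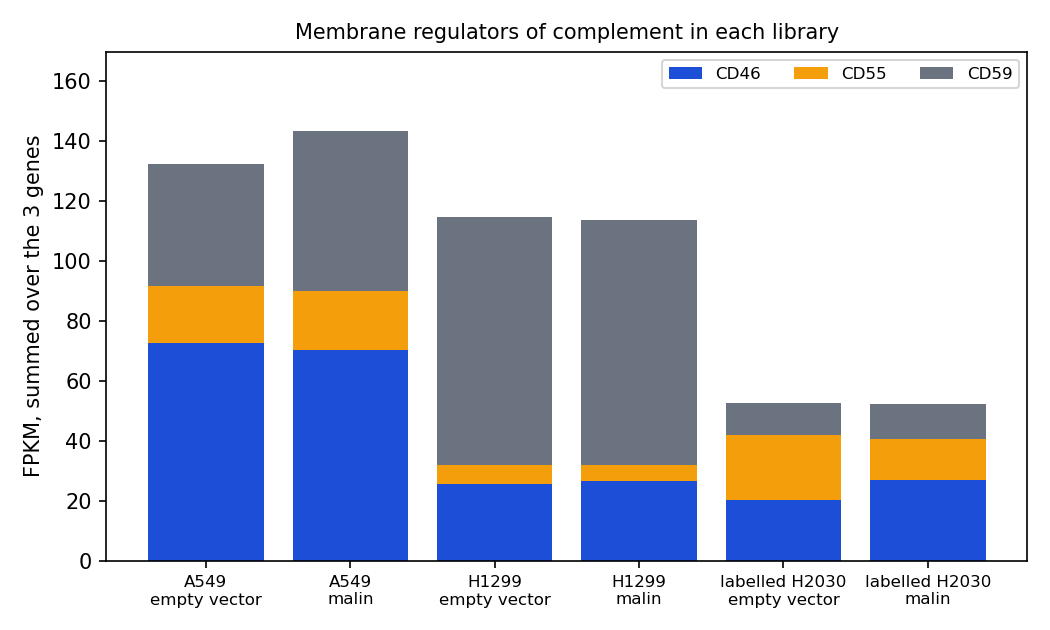
FPKM summed over CD46, CD55 and CD59 (stacked bars, linear axis from 0) in each of the 6 libraries, 1 library per bar. The sums lie between 52.2 and 143.3 FPKM, with CD59 the largest part in both H1299 libraries and CD46 the largest in both A549 libraries.

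CD46 and CD55 lie in the cluster of complement regulators on chromosome 1, at 207752038 to 207795516 and 207321678 to 207360966, both on the plus strand. The pseudogene CDCA4P4 overlaps CD46, and the long noncoding gene LOC107985251 overlaps CD55. CD46 was at 72.7 and 70.4 FPKM in A549 with empty vector and malin, 25.7 and 26.5 in H1299, and 20.2 and 26.8 in the pair labelled H2030. A549 stood above the other lines by 1.42 ± 0.13 and 1.58 ± 0.13 on the log2 scale (SE; limma, adjusted p = 0.000356 and 0.00018), while H1299 and the pair labelled H2030 overlapped. The difference of that last pair of lines, 0.16 ± 0.13, did not pass (limma, adjusted p = 0.338), except without the malin library labelled H2030, where it was 0.35 (adjusted p = 0.00565). CD55 was at 19.1 and 19.6 FPKM in A549, 6.06 and 5.5 in H1299, and 21.6 and 13.8 in the pair labelled H2030. Here H1299 was the low line, with a coefficient of 1.58 ± 0.18 for A549 against H1299 and -1.43 ± 0.18 for H1299 against the pair labelled H2030 (SE; limma, adjusted p = 0.000697 and 0.000854). A549 lay between the 2 libraries of the pair labelled H2030, and the difference of 0.15 ± 0.18 did not pass (limma, adjusted p = 0.471). That value depended on single libraries and on scaling. It was 0.44 without the empty-vector library labelled H2030 (limma, adjusted p = 0.0142), 0.47 with median-of-ratios scaling (0.0476), -0.13 without the malin library labelled H2030 (0.353) and -0.046 without the malin library of A549 (0.891).

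CD59, the inhibitor of pore assembly, lies on chromosome 11 from 33703010 to 33736479 on the minus strand and overlaps the gene C11orf91. It was at 40.7 and 53.4 FPKM in A549 with empty vector and malin, 82.8 and 81.8 in H1299, and 10.7 and 11.6 in the pair labelled H2030. The lines did not overlap, and H1299, the line with the lowest CD55, had the highest CD59. The coefficient was -0.81 ± 0.12 for A549 against H1299, and A549 and H1299 exceeded the pair labelled H2030 by 1.98 ± 0.12 and 2.78 ± 0.12 (SE; limma, adjusted p = 0.00238, 7.2e-05 and 2.97e-05). All 3 calls held when any 1 of the 6 libraries was left out, with adjusted p (limma) of at most 0.0443 over those and the other alternatives.

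Over the 8 members fitted, A549 was higher than H1299 for 6 and lower for CD59, where 27.2% of all fitted genes were higher and 34.5% lower (61.6% called in all). Against the pair labelled H2030, A549 was higher for 6 members and lower for SERPING1, where 22.1% of all genes were higher and 45% lower (67% in all). H1299 was higher than that pair for C5 and CD59 and lower for C1R, C1S, SERPING1 and CD55, where 23.8% of genes were higher and 40.9% lower (64.7% in all). These comparisons share libraries and are not independent. Median-of-ratios scaling moved the median of all genes by 0.30 for A549 and 0.21 for H1299 against the pair labelled H2030, and by 0.09 between A549 and H1299. It changed the split of calls from 2689 higher and 5476 lower to 3991 and 3855 for A549 against that pair, and from 2896 and 4981 to 3796 and 3920 for H1299. Quantile normalization gave 3462 higher and 4207 lower for A549 against that pair. No called member changed direction under either scaling.

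**Figure D3:**
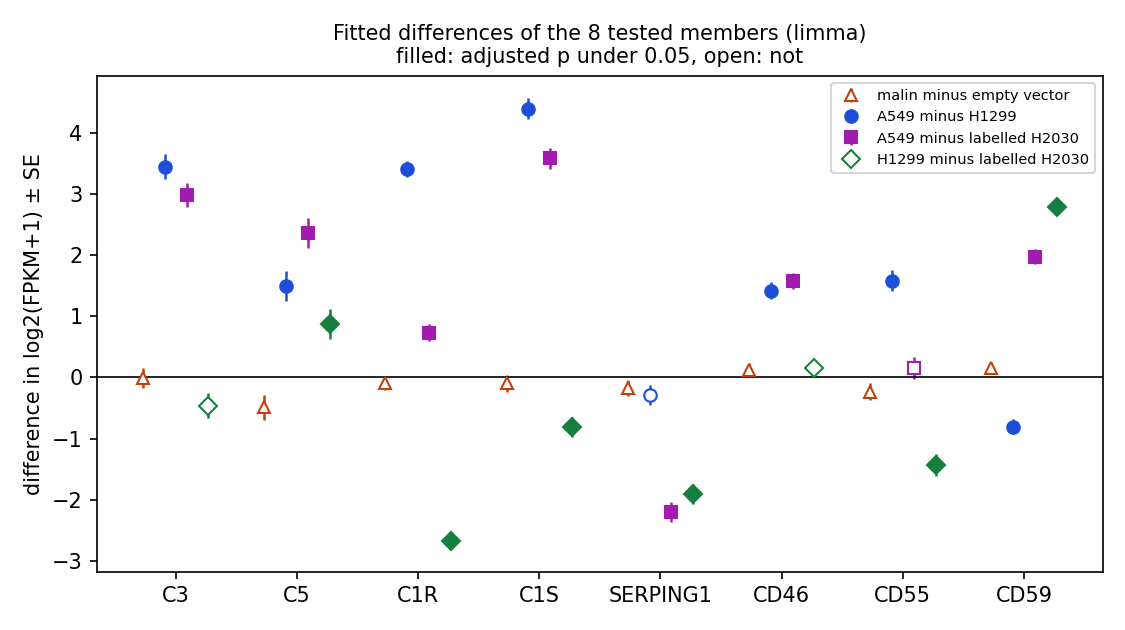
Differences in log2(FPKM+1) (vertical axis) with limma's moderated SE (bars) for the 8 fitted members, between vectors (triangles, 3 pairs) and between lines (circles, squares and diamonds, 2 libraries per line); filled symbols had an adjusted p under 0.05. The line differences reach 4.40 for C1S, while the vector differences lie between -0.49 and 0.16 and are all open.

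Whether malin changed complement transcripts was asked across the lines with each line as a pair. None of the 8 fitted members passed (limma, smallest adjusted p 0.927), and 0 of all 12182 genes did (0%), with 213 genes at an unadjusted p under 0.05 (1.75%, limma). NHLRC1 itself was higher with malin in all 3 lines and met the filter, but it was not called either. A missing call in this fit therefore does not show that a gene was unchanged. No member had the same sign in all 3 lines, where 11% of all genes were higher and 11.3% lower in all 3. C5 had the mean difference farthest from 0, -0.49 ± 0.51 (SD, n = 3 lines; limma, adjusted p = 0.927), and -0.27 without the libraries labelled H2030. Mean differences of the others were -0.23 ± 0.34 for CD55, -0.17 ± 0.22 for SERPING1, 0.16 ± 0.20 for CD59, 0.13 ± 0.23 for CD46, -0.09 ± 0.26 for C1S, -0.09 ± 0.09 for C1R and -0.0082 ± 0.36 for C3 (SD, n = 3). Without the libraries labelled H2030 the mean was -0.043 for CD55, -0.058 for SERPING1 and -0.0025 for CD46, and without A549 it was 0.046 for CD59, 0.18 for C3 and 0.028 for C1S. CFB, which was not fitted, had a mean of -0.25 ± 0.30 (SD, n = 3). In exact paired sign-flip tests the 9 two-sided p-values lay between 0.5 and 1, and 3 pairs cannot give less than 0.25.

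Within a line there was no replicate, and the values below are single libraries with counting intervals. In A549 C3, C5, CFB, C1R, C1S, SERPING1 and CD46 had a lower FPKM in the malin library, and CD55 and CD59 a higher one. The median log2 difference over all fitted genes was 0 there. The share of all genes that were lower was not counted, so these directions are a description only. C5 stood at 0.627 times its empty-vector FPKM (95% exact binomial interval 0.543 to 0.721, from estimated fragments), C3 at 0.746 times (0.661 to 0.844), C1S at 0.784 times (0.705 to 0.873) and CFB at 0.417 times (0.204 to 0.788). C1R was at 10.4 and 9.69 FPKM, and CD59 was higher with malin, at 53.4 against 40.7 FPKM. On the FPKM+1 scale C5 was the 1 fitted member beyond 1.5-fold in A549, where 0.583% of all genes were lower by that much and 0.542% higher. In H1299, where NHLRC1 reached 119.2 FPKM, 0 members differed by 1.5-fold (0.328% of genes were higher and 0.148% lower), and the C5 ratio was 1.07 (interval 0.815 to 1.41). In the pair labelled H2030, C5 was at 0.15 times (0.0663 to 0.288), resting on an estimated 57 and 10 fragments, and CD55 at 0.638 times (0.552 to 0.736). These were the 2 members lower by 1.5-fold there, where 7.33% of all genes were, and 0 members were higher by it (4.28%). CD46 was higher, at 1.33 times (1.19 to 1.48), and C3 at 2.33 times (1.14 to 5.54) on 10 and 29 fragments. The SD of log2 differences over all genes was 0.40 in that pair, against 0.18 in A549 and 0.16 in H1299. The intervals cover counting error only, and differences between lines in the effect of malin could not be tested with 1 library per line and vector.

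**Figure D4:**
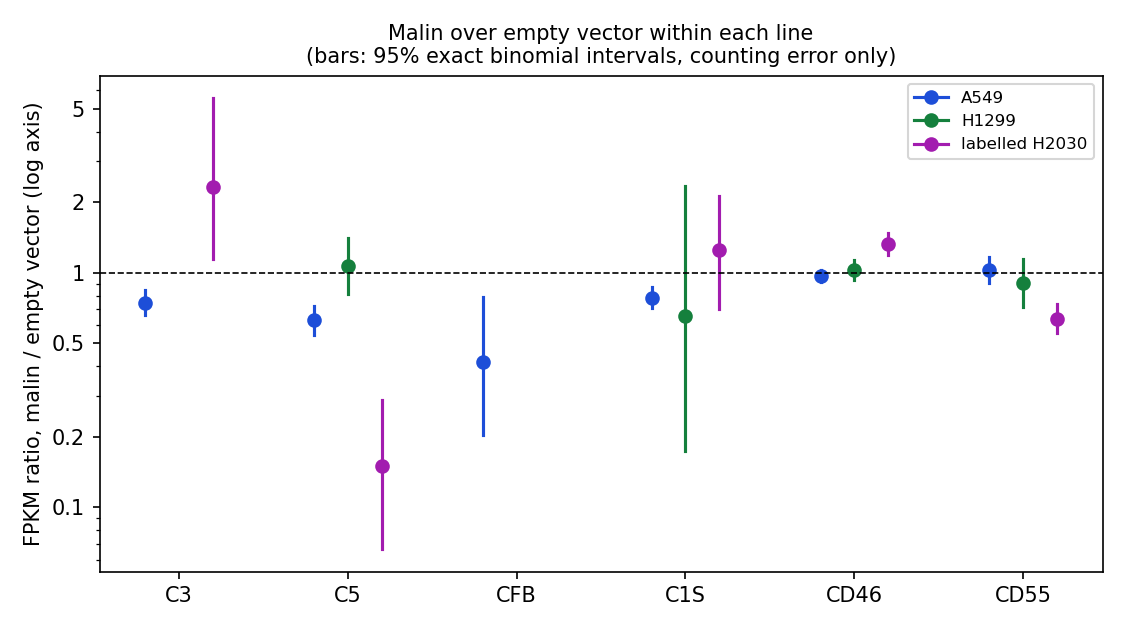
Ratio of FPKM with malin to FPKM with empty vector (vertical axis, log scale) within each line for the members whose transcript length was known and with at least 5 estimated fragments in both libraries; bars are 95% exact binomial intervals for counting error. C5 lies at 0.627 in A549 and 0.15 in the pair labelled H2030, and at 1.07 in H1299.

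The rest of the cascade was sparse. Of 54 other complement genes listed, 46 were analysed, 16 reached 1 FPKM in some library and 10 entered the fits. Of these 10, 6 were higher in A549 than in H1299 and 0 lower (limma, adjusted p under 0.05), where 27.2% of all fitted genes were higher and 34.5% lower. Against the pair labelled H2030, A549 was higher for 5 and lower for 4 (22.1% and 45% of all genes), and H1299 was higher for 0 and lower for 7 (23.8% and 40.9%). None passed between vectors. The 5 analysed terminal and alternative pathway genes included CFD, the protease that activates CFB, at 4.13 to 9.33 FPKM in all 6 libraries, while C6, C7 and C8G reached at most 0.26 FPKM. MASP2 and COLEC11, of the lectin pathway, peaked at 2.26 and 2.25 FPKM in the empty-vector library labelled H2030 and were at most 0.42 FPKM in A549 and H1299. COLEC12, a scavenger receptor of the collectin family, had 9.6 and 9.1 FPKM in both libraries labelled H2030, against 0.17 or less in A549 and H1299. The substrates of C1S were low, C2 reaching 1.7 and 1.19 FPKM only where H2030 was the label (at most 0.1 in A549 and H1299), and C4A at most 1.35 FPKM, a value that is uncertain because C4B is a near-identical copy.

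Among the fluid-phase regulators, CLU and VTN were highest in A549. CLU, clusterin, which binds the forming pore, was at 277.5 and 246.9 FPKM in A549, 12.9 and 14.4 in H1299, and 36.4 and 18.9 in the pair labelled H2030. VTN, vitronectin, another inhibitor of the pore, was at 12.2 and 7.48 FPKM in A549 and at most 0.38 elsewhere. Both were higher in A549 than in each of the other lines (limma, adjusted p of at most 0.000112). PROS1, protein S, was instead highest in the pair labelled H2030, at 11.1 and 14.3 FPKM against 6.44 to 8.67 in the other 4 libraries. THBD, thrombomodulin, was at 9.79 and 9.05 FPKM in A549 and at most 1.02 elsewhere, and SUSD4, a membrane regulator, reached 3.71 and 3.44 FPKM in the libraries labelled H2030. C1RL, a protease related to C1R, was at 7.08 and 5.76 FPKM in A549, 1.74 and 2.18 in H1299 and 4.36 and 3.72 in the pair labelled H2030, the same order of lines as C1R. C1QBP, a mainly mitochondrial protein named for binding C1q, was at 206.1 FPKM or more in every library. The receptors C3AR1, C5AR1 and C5AR2 stayed below 1 FPKM throughout.

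**Figure D5:**
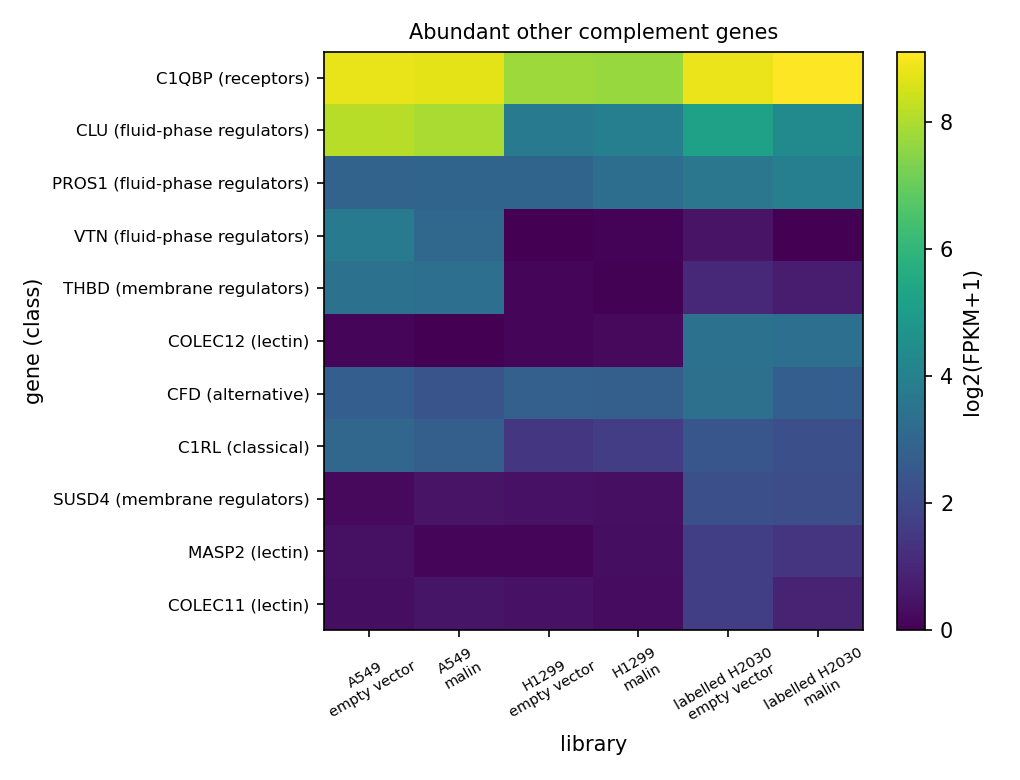
log2(FPKM+1) (colour) of 11 abundant other complement genes (rows, with their class) in the 6 libraries (columns, 1 library each). CLU, VTN and THBD are brightest in both A549 columns, and COLEC12 and SUSD4 in both columns labelled H2030.

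Genes that act upstream of complement, or that equip its regulators, were counted as groups. The first group held 20 receptors, kinases, transcription factors and a coactivator of the interferon, IL-6, IL-1, TNF and NF-kB pathways, known to induce complement genes. Of these 20, 15 were higher and 1 lower in A549 than in the pair labelled H2030 (limma, adjusted p under 0.05). By the same threshold 13 were higher and 2 lower in H1299 than in that pair, and 8 higher and 5 lower in A549 than in H1299. Of all fitted genes, 22.1% were higher and 45% lower in the first of these comparisons, 23.8% and 40.9% in the second, and 27.2% and 34.5% in the last. Median-of-ratios scaling gave 17 and 0, 13 and 2, and 11 and 5 for the 20 genes. RELB, a subunit of NF-kB, was at 45.6 and 44 FPKM in H1299, 15.4 and 17.4 in A549 and 0.61 and 0.7 in the pair labelled H2030. This order of lines was that of CD59 and of none of the components, and a link was not tested. CEBPB, a factor of the acute-phase response, was at 39.2 and 46.7 FPKM in A549, 5.86 and 5.65 in H1299, and 18.4 and 6.07 in the pair labelled H2030. IL1R1, the IL-1 receptor, was at 7.82 and 7.69 FPKM in A549 and at most 1.48 elsewhere, and TNFRSF1A, a TNF receptor, was lowest in the libraries labelled H2030, at 12.8 and 16.2 FPKM against 111.9 or more in the other 4. None of the 20 passed between vectors. All 25 genes of GPI anchor synthesis and remodelling, on which CD55 and CD59 depend, were at 2.16 FPKM or more in every library. A549 was higher than the pair labelled H2030 for 2 of them and lower for 12 (22.1% and 45% of all genes), a split that became 7 and 9 with median-of-ratios scaling. A549 was higher than H1299 for 8 and lower for 7 (27.2% and 34.5%), and H1299 was higher than the pair labelled H2030 for 3 and lower for 11 (23.8% and 40.9%), or 7 and 10 with that scaling. PIGL reached 20.9 and 25.5 FPKM there, against 5.33 or less in A549 and H1299, and PIGP was at 8.74 and 9.84 FPKM in A549, 27.6 and 25.6 in H1299 and 43.8 and 35.1 in the pair labelled H2030. PIGQ and PIGS were lowest in H1299, at 5 and 5.59 FPKM and at 11.3 and 13 FPKM.

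Liver secretory genes, examined because the liver makes most plasma complement, were low. Of 15 analysed, 7 reached 1 FPKM in some library and 1 entered the fits, SERPINA1, at 2.49 and 3.46 FPKM in H1299 and at most 0.13 elsewhere. The hepatocyte factor HNF4A was at 2.53 and 2.44 FPKM in A549 and listed at 0 in the other 4 libraries, AMBP was at 2.76 and 1.65 FPKM in A549 and at most 0.07 elsewhere, and FGA, a fibrinogen chain, was at 3.88 and 0.55 FPKM in A549 with empty vector and malin. Albumin, ALB, reached at most 0.39 FPKM. The summed FPKM of the 15 was 15.4 and 8.05 in the A549 libraries with empty vector and malin, 3.13 and 4.45 in H1299, and 1.89 and 1.33 in the pair labelled H2030. This sum was lower with malin in A549, as were C3, C5, CFB and C1S, and its part in their values was not tested.

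The genes whose centred log2(FPKM+1) profile over the 6 libraries lay closest to each fitted member, among genes whose line means spanned at least 1, are given as a description, since 6 libraries from 3 lines leave many genes with similar profiles. For C3 they were PDK4, OPN3 and NAAA, at root mean square distances of 0.091, 0.101 and 0.14 (Pearson's r 0.998, 0.998 and 0.996). For C1R the closest was LIMCH1 (distance 0.089, r 0.998), for C1S TSKU (0.196, r 0.995), and for C5 CTSB (0.262, r 0.969). SERPING1 was closest to MOSPD1 (0.072, r 0.998), CD46 to S100A10 (0.041, r 0.998), CD55 to RAD51D (0.086, r 0.996) and CD59 to NAV3 (0.1, r 0.999). None of the 3 closest genes of any member was another member.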

How the data were processed

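RNA was extracted with a column kit, per the labels' protocols. Each library has 1 table of FPKM, deposited by the authors and so named per the file headers. Build hg38 and the tools STAR, Cufflinks, cutadapt and FastQC come from the submitters' processing notes, without versions. Members were matched by symbol and Entrez identifier. Gene class and positions came from RefSeq (GRCh38.p14, the assembly of hg38), which matched 19770 of 19903 genes, and strands from GENCODE release 29. Values as log2(FPKM+1) were fitted with limma 3.58.1 in R 4.3.3 (intensity trend, terms for line and vector) on 12182 protein-coding genes with a mean of at least 1 FPKM, with Benjamini-Hochberg adjustment at 0.05 and 2 residual degrees of freedom. The fold changes understate those of low genes. Pairs followed the cell line label: deviations from vector means correlated at 0.929 to 0.966 within lines and at -0.538 to -0.429 between lines. Centring the 3 libraries of a vector itself draws the between-line values negative, so only the within-line values bear on the pairing. Results were recomputed with a pseudocount of 0.1 or 5, with no filter, with a minimum mean of 5 FPKM, with median-of-ratios or quantile scaling, all gene classes, no intensity trend, no block, and leaving out lines or libraries.

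No counts were used. Depth was estimated as the fragment total at which low FPKM of 1-transcript genes of 600 to 2000 bases, times length less 100 bases, lay closest to whole fragments. Between 76.9% and 79.7% of them lay within 0.2 of a whole number. Because the total was chosen to fit these values, fragment numbers are approximate. They are given for members whose RefSeq transcripts have GENCODE lengths within 1.5-fold of each other. Named genes were the 9 members, NHLRC1, up to 12 other complement genes by highest FPKM (1 of which is not reported here), up to 4 per other list by the range of line means, and the 3 nearest profiles per member. Further genes in the text (C2, C4A, C6, C7, C8G, the receptors, ALB, PTPRC, NKX2-1, SFTPB, SFTPC, NAPSA, EPCAM, CDH1, KRT8, KRT18, SALL1, SIX2, PAX8, WT1, CSF1R, CD163, CD14, CD68, LYZ, COL1A1, LUM, DCN and PDGFRB) were chosen after their values were seen. Members and lists were chosen with earlier results of these data known. Tables and figures were made with matplotlib 3.10.9, scipy 1.17.1, pandas 2.3.3 and numpy 2.4.6 under Python 3.11.15.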

Additional observations from a re-analysis of the deposited data

Results flagged for a closer look

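For C3 the malin and empty-vector libraries lay in opposite order in 2 lines, each beyond counting error. The FPKM ratio of malin to empty vector was 0.746 in A549 and 2.33 in the pair labelled H2030, the latter on an estimated 10 and 29 fragments. On log2(FPKM+1) the differences were -0.38 and 0.33, where the SD over all fitted genes was 0.18 and 0.40. The counting intervals were not adjusted for the number of members and lines compared. The difference between the lines was not tested, since each line had 1 library per vector, and the malin library of the second pair carries the column heading of another cell line.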

How the results depend on the processing

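Of the member values under alternatives, 100 of 105 kept their direction and side of the threshold (or, for CFB, stayed within the replicate spread) between vectors, 127 of 132 between A549 and H1299, 123 of 132 for A549 against the pair labelled H2030, and 116 of 132 between H1299 and that pair. C3, C5 and SERPING1 were not fitted with a minimum mean of 5 FPKM and are not counted there. Between vectors, 1 gene was called without the libraries labelled H2030 and 0 under the other alternatives, so leaving out a line gave 0 to 1. Without the replicate block 0 genes were called, and no call of a member changed. Leaving out 1 library gave 4559 to 9391 genes called between A549 and H1299 (7508 with all 6; 4746 and 4823 without the empty-vector or malin library of A549, 4559 and 4582 without those of H1299), 5726 to 9214 for A549 against the pair labelled H2030 (8165), and 5226 to 8980 between H1299 and that pair (7877; lowest without the empty-vector library of H1299), and a line left with 1 library is assumed to vary like the others.

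The sign of the vector difference turned for C3 with a pseudocount of 0.1 (0.27) and without A549 (0.18), for C1S without A549 (0.028), and for CD46 without the libraries labelled H2030 (-0.0025). For CD55 it turned in the comparison of A549 with the pair labelled H2030 without the malin library of A549 (-0.046) or of that pair (-0.13). In the comparison of H1299 with that pair it turned for CFB without the empty-vector library of H1299 (0.075) and for CD46 without the empty-vector library labelled H2030 (-0.0403). None of these was called in the fit of all libraries, and the cause was not tested. C3, CFB and SERPING1 rest on few fragments where they are low, which limits their differences between the low lines. The comparison of low levels depends on the pseudocount.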
